A study of Drosophila melanogaster with 8 samples.

Results

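Of the 17563 genes in the count tables, 10 encode parts of the transport machinery and the microtubule core of cilia: the intraflagellar transport (IFT) genes Oseg1, Oseg2, Oseg4, Oseg5, Oseg6, rempA and nompB, the tektin genes Tektin-A and Tektin-C, and nmdyn-D7, a nucleoside diphosphate kinase family gene. They were picked by gene symbol after changes between REPTOR[ACT] and control thoraces in these same libraries were known, with nmdyn-D7, Oseg2 and Tektin-C among the large ones. The differences between the genotypes are therefore a description of these 10 genes, given with standard errors (SE), and where one passed or missed a threshold this is no independent test of it. Tektin-C fell 18.0-fold, Oseg2 fell 5.11-fold and nmdyn-D7 rose 10-fold in REPTOR[ACT] thoraces, whereas the other 6 genes with enough reads to fit differed by at most 1.51-fold.

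A cilium grows by intraflagellar transport, in which protein trains carry building blocks along its microtubules. The IFT-B complex works with kinesin-II on the way to the tip, and the IFT-A complex with cytoplasmic dynein on the way back. Tektins are filamentous proteins that lie along the doublet microtubules of the ciliary core, the axoneme. In flies, cilia are found on sensory neurons, such as those of the chordotonal organs and bristles, and the sperm tail is a long modified axoneme that is built without IFT.

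The 8 libraries were made from poly-A RNA of dissected thoraces, which are mostly muscle, of adult males. The 4 REPTOR[ACT] samples had the genotype tub-Gal80ts/UAS-REPTOR[ACT]; dMef2-GAL4/+, in which a constitutively active form of the transcription factor REPTOR is driven in muscle, and the 4 control samples came from tub-Gal80ts; dMef2-GAL4 flies crossed to w[1118]. All flies carried the driver and the temperature-sensitive GAL80, developed at 18 °C with the driver repressed, were kept there for a few days as adults, and were then held for 4 days at 29 °C. Each sample pooled 5 to 6 thoraces, and no label says whether replicates were separate crosses, so p-values measure only the spread between these samples. The transgene and the chromosomes of its stock came together and cannot be told apart from each other. UAS-REPTOR[ACT] lies on the second chromosome, where 5 of the 10 genes are found (Oseg5, Oseg6, rempA, nompB and Tektin-A). In bulk tissue, fewer cells of a type and less RNA per cell cannot be told apart either.

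REPTOR itself was at 337, 289, 270 and 306 CPM (reads per 1e6 reads, scaled with TMM factors) in the REPTOR[ACT] libraries, against 101, 132, 92.5 and 97.2 CPM in the control libraries, a 2.85-fold increase (log2 fold change 1.51, SE 0.115). Every library therefore matched its label, although reads of the transgene and of the endogenous gene were counted together. The REPTOR[ACT] libraries held 29.07 to 42.74 M reads (M, 1e6) and the control libraries 26.79 to 50.03 M. A gene with no read in a library could still have been present at the level of 3 reads. That was between 0.0600 and 0.112 CPM before scaling with TMM factors. These limits cover counting error alone.

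The cilium genes were weakly expressed in the thorax. All 10 together received 12328 reads over the 8 libraries, and nmdyn-D7 and Oseg2, which had the most reads, averaged 10.4 and 10.1 CPM. These are CPM not divided by length, in which the median gene tested averaged 15.9. A count filter that asked for about 10 reads in at least 4 of the 8 libraries left 9903 genes, among them 9 of the 10. Tektin-A was the exception: a single read was counted in REPTOR[ACT] replicate 4 and none in the other 7 libraries. Among the 9 genes in the fit, Oseg4 had the fewest reads in a control library (20) and Tektin-C the fewest in a REPTOR[ACT] library (13).

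In the fit of edgeR's quasi-likelihood model over all genes, in which "rose" and "fell" mean a Benjamini-Hochberg adjusted p under 0.05, 5 of the 9 genes passed the threshold. The same held for 44.2% of all genes tested. nmdyn-D7 and rempA rose (24.8% of all genes did), Oseg1, Oseg2 and Tektin-C fell (19.4% of all genes did), and Oseg4, Oseg5, Oseg6 and nompB passed in neither direction. With an absolute log2 fold change over 1 asked for as well, 1 gene rose and 2 fell, where the shares of all genes were 4.83% and 2.05%. The libraries of the genotypes did not overlap for 4 of the 9 genes, and for 41.9% of all genes. Because the genes were chosen on this contrast, nothing is read from these counts.

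**Figure D1:**
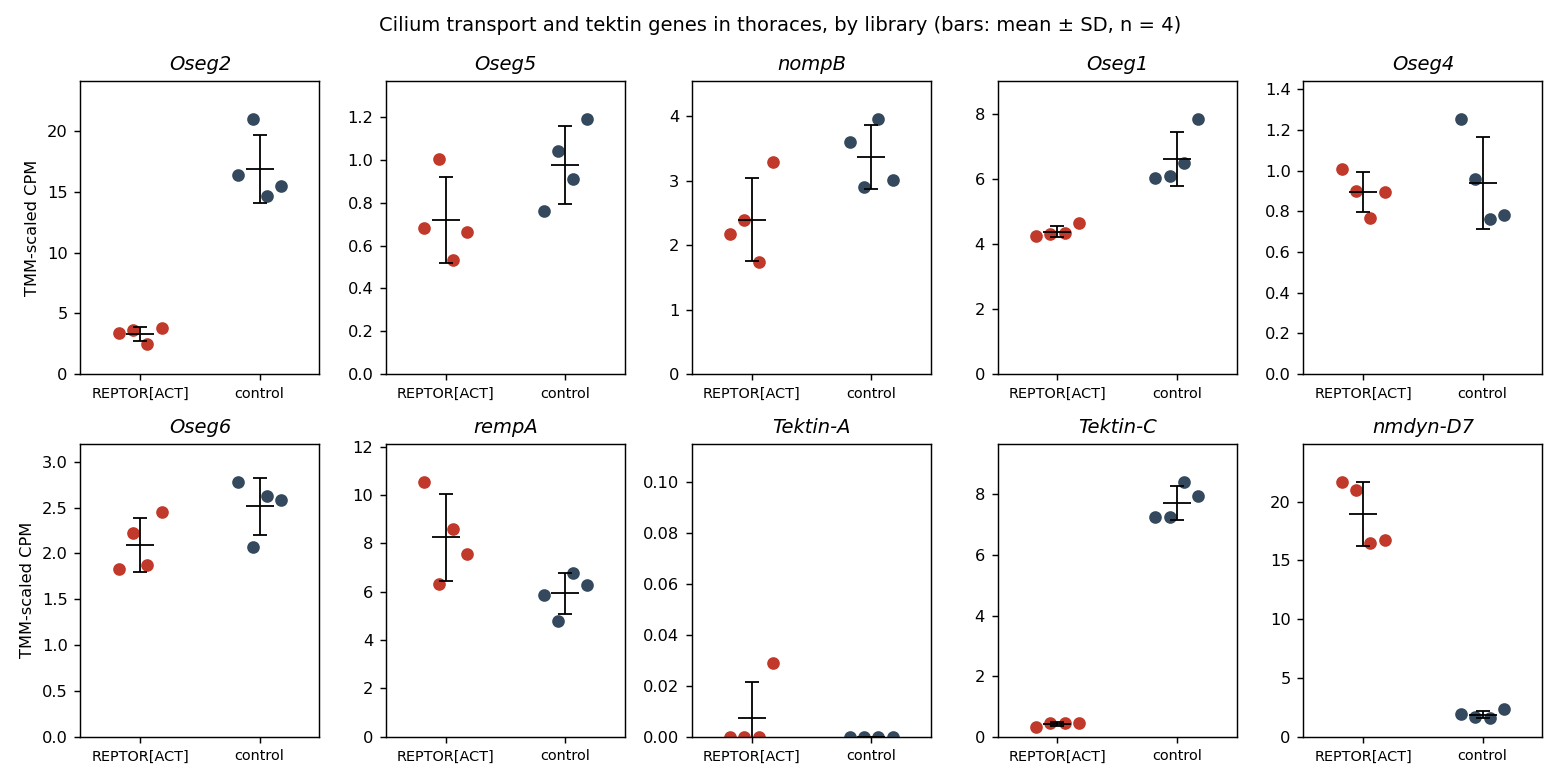
Each panel plots the TMM-scaled CPM of 1 cilium gene, from 0 upward, with 1 point per library (REPTOR[ACT] left, control right) and bars for the mean and SD over 4 libraries. The genotypes are apart for Oseg2, Oseg1, Tektin-C and nmdyn-D7 and overlap for the rest, and Tektin-A has its only read in 1 REPTOR[ACT] library.

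The 3 IFT-B genes of the group differed in how far apart the genotypes lay. Oseg2 (FBgn0035317; chromosome 3L, 2229646 to 2235253, plus strand, coordinates of BDGP6.54 throughout) encodes the fly counterpart of the IFT-B protein IFT172. It had 143, 105, 73 and 131 reads in the REPTOR[ACT] libraries, against 536, 1005, 386 and 532 reads in the control libraries, which is 3.36, 3.64, 2.44 and 3.77 CPM against 16.4, 21.0, 14.7 and 15.4 CPM. The highest REPTOR[ACT] library was thus far below the lowest control library, and control replicate 2, the deepest library, was the highest of its group in CPM as well as in reads. The means were 3.30 ± 0.601 CPM in REPTOR[ACT] and 16.9 ± 2.82 CPM in control thoraces (SD, n = 4 each), and the log2 fold change was −2.35 (SE 0.151), rank 37 among the decreases of all genes tested. The SD was 18.2% of the mean in REPTOR[ACT] and 16.7% in control libraries, where counting error alone would give 9.41% and 4.03%. Oseg2 shares no exon bases with another gene. Its neighbour CG9018, 30 bases away, was at 14.6 to 16.1 CPM in REPTOR[ACT] and 16.0 to 16.9 CPM in control libraries and did not pass the threshold (−0.10, SE 0.062), and CG15878, 17142 bases to the other side, had too few reads to fit.

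The other IFT-B genes were lower on average, with overlapping libraries. nompB (FBgn0016919; 2L, 21578292 to 21589423, minus strand), the counterpart of IFT88 and needed for mechanosensory cilia, had 2.18, 2.39, 1.74 and 3.28 CPM in REPTOR[ACT] libraries, against 3.60, 2.90, 3.96 and 3.02 CPM in control libraries. In 3 of the 4 REPTOR[ACT] libraries nompB was below every control library, and REPTOR[ACT] replicate 4 was the exception (log2 fold change −0.48, SE 0.186, not past the threshold). With that library left out the value was −0.67 and passed. Oseg5 (FBgn0032891; 2L, 20832849 to 20835840, minus strand), the counterpart of IFT80, had 0.680, 1.01, 0.535 and 0.663 CPM in REPTOR[ACT] libraries, against 0.763, 1.04, 0.913 and 1.19 CPM in control libraries, from 16 to 29 and 24 to 50 reads. The genotypes overlapped because of the 1.01 CPM of REPTOR[ACT] replicate 2 (log2 fold change −0.45, SE 0.232). Without it the value was −0.63 and passed the threshold.

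The 4 IFT-A genes went in both directions. Oseg1 (FBgn0265102; 3L, 8407268 to 8412825, minus strand), the counterpart of IFT122, had 4.25, 4.30, 4.35 and 4.64 CPM in REPTOR[ACT] libraries, against 6.05, 6.09, 6.50 and 7.84 CPM in control libraries. It fell 1.51-fold (log2 fold change −0.59, SE 0.103) with no overlap, and the REPTOR[ACT] libraries lay closer together (4.38 ± 0.175 CPM) than the control libraries (6.62 ± 0.838 CPM). Oseg6 (FBgn0034452; 2R, 19487046 to 19491846, minus strand), the counterpart of IFT144, had 1.83, 2.22, 1.87 and 2.45 CPM in REPTOR[ACT] libraries, against 2.78, 2.07, 2.62 and 2.58 CPM in control libraries. Its libraries overlapped only through control replicate 2 (log2 fold change −0.26, SE 0.148). Oseg4 (FBgn0035264; 3L, 1730993 to 1735767, minus strand), the counterpart of IFT121, averaged 0.893 ± 0.0982 CPM in REPTOR[ACT] and 0.939 ± 0.227 CPM in control thoraces, with 23 to 43 reads per REPTOR[ACT] library and 20 to 46 per control library. No difference was detectable at this depth (log2 fold change −0.07, SE 0.206), and its sign turned when control replicate 1 was left out (0.09).

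rempA (FBgn0260933; 2L, 553742 to 560310, minus strand), the counterpart of IFT140, was the IFT gene that rose. It had 10.5, 6.31, 8.59 and 7.55 CPM in REPTOR[ACT] libraries, against 5.86, 4.80, 6.77 and 6.27 CPM in control libraries. In 3 of the 4 REPTOR[ACT] libraries it was above every control library, with REPTOR[ACT] replicate 2 inside the control range (log2 fold change 0.49, SE 0.158). It no longer passed the threshold when control replicate 1 or 2 or REPTOR[ACT] replicate 1 or 3 was left out, with log2 fold changes of 0.49, 0.41, 0.35 and 0.48. Of rempA's 5772 exon bases, 640 (11.1%, and 75% of those of the partner) are shared with Tspo, a mitochondrial outer membrane protein gene on the opposite strand that starts within the 5′ end of rempA. The sources used here do not give the strand setting of the counting, so it is not known for which of these genes, if any, reads from the shared bases were counted.

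Tspo had 242, 203, 229 and 230 CPM in REPTOR[ACT] libraries, against 73.3, 75.2, 101 and 96.1 CPM in control libraries, and rose with a log2 fold change of 1.39 (SE 0.111). Its libraries did not overlap, and its increase was larger than that of rempA. The reads of rempA came to 3.10 to 4.35% of those of Tspo in REPTOR[ACT] and to 6.38 to 8.0% in control libraries. The part of these shared bases in the increase of rempA was not tested. Oseg1 shares 695 exon bases (14.6%) with Exo70, an exocyst subunit gene, and 87 (1.82%) with CG13667, both on the opposite strand. Exo70 was at 9.92 to 11.6 CPM in REPTOR[ACT] and 12.4 to 14.0 CPM in control libraries (log2 fold change −0.28, SE 0.076), and CG13667 also fell (−0.58, SE 0.0919). The part of these neighbours in the decrease of Oseg1 was likewise not tested. Smaller overlaps of 115 bases with drpr (log2 fold change 0.05) on the same strand and of 11 bases with CG31674 (−0.60) touch Oseg4 and Oseg5.

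**Figure D2:**
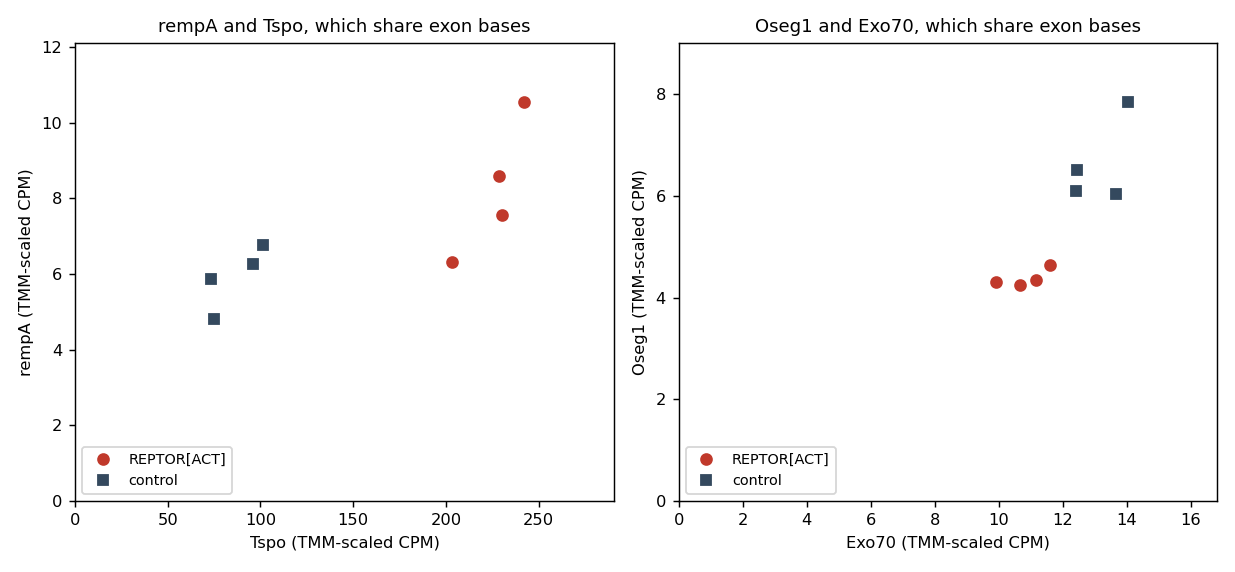
The left panel plots rempA against Tspo and the right panel Oseg1 against Exo70, both in TMM-scaled CPM with axes from 0 and 1 point per library (circles REPTOR[ACT], squares control). Tspo separates the genotypes (203 to 242 CPM in REPTOR[ACT], 73.3 to 101 in control libraries) while rempA overlaps, and both Oseg1 and Exo70 are lower in every REPTOR[ACT] library.

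Of the tektin genes only Tektin-C was measurable. Tektin-C (FBgn0035638; 3L, 5794405 to 5796543, minus strand) had 14, 13, 14 and 16 reads in the REPTOR[ACT] libraries, against 237, 348, 221 and 273 reads in the control libraries. In CPM these are 0.329, 0.451, 0.468 and 0.461 in REPTOR[ACT], against 7.24, 7.26, 8.41 and 7.93 in control libraries, and every REPTOR[ACT] library was far below every control library. The means were 0.427 ± 0.0661 CPM in REPTOR[ACT] and 7.71 ± 0.564 CPM in control thoraces (SD, n = 4 each), with a log2 fold change of −4.18 (SE 0.138), rank 7 among the decreases of all genes tested. The REPTOR[ACT] mean rests on 57 reads in all, and its SD, 15.5% of the mean, was below the 26.5% that counting error alone would give. Tektin-C shares no exon bases with another gene. On its left Bre1, a ubiquitin ligase gene 212 bases away, did not pass the threshold (log2 fold change −0.16, SE 0.0661), and on its right S6k, the S6 kinase gene of TORC1 signalling 1005 bases away, rose (0.52, SE 0.122).

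Tektin-A (FBgn0028902; 2L, 15854126 to 15856450, plus strand) was not detected in the control libraries, which allows up to 0.0600 to 0.112 CPM before TMM scaling. The REPTOR[ACT] libraries without a read allow up to 0.0702 to 0.103 CPM, also before TMM scaling. The single read in REPTOR[ACT] replicate 4 corresponds to 0.0288 CPM with TMM factors. Both genotypes were thus at or under the limit of 3 reads, and no fold change is given.

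nmdyn-D7 (FBgn0028997; 3R, 9679939 to 9681502, plus strand) is related to vertebrate NME7, a protein of axonemal microtubules. It had 924, 605, 492 and 580 reads in the REPTOR[ACT] libraries, against 63, 82, 42 and 81 reads in the control libraries, or 21.7, 21.0, 16.4 and 16.7 CPM against 1.92, 1.71, 1.60 and 2.35 CPM. Each REPTOR[ACT] library was well above all control libraries, and REPTOR[ACT] replicates 1 and 2 were higher than replicates 3 and 4. The means were 19.0 ± 2.76 CPM in REPTOR[ACT] and 1.90 ± 0.333 CPM in control thoraces (SD, n = 4 each), with a log2 fold change of 3.32 (SE 0.140), rank 36 among the increases. The gene shares 88 exon bases (6.32%) with CG9444 on the opposite strand, which was at 0.403 to 0.493 CPM in REPTOR[ACT] and 0.232 to 0.794 CPM in control libraries. p23, a co-chaperone gene 280 bases to the other side, rose by far less (log2 fold change 0.48, SE 0.0626). Other nucleoside diphosphate kinase genes differed in direction from each other: awd, the most studied fly member of the family, rose (0.62, SE 0.0721; 173 to 200 CPM in REPTOR[ACT], 115 to 132 in control libraries) and nmdyn-D6 fell (−0.71, SE 0.206).

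Levels per length of exon put the 10 genes on a common scale and showed a different order in each genotype. In REPTOR[ACT] thoraces nmdyn-D7 was the highest at 13.6 ± 1.98 CPM per kb, followed by rempA at 1.43 ± 0.310. Below them Oseg1, nompB, Oseg2 and Oseg6 were at 0.920, 0.859, 0.627 and 0.484 CPM per kb, where each overlapped the next in the order. Oseg5, Tektin-C and Oseg4 came last with 0.281, 0.260 and 0.216 CPM per kb, each again overlapping the next of these. In control thoraces Tektin-C was the highest at 4.70 ± 0.344 CPM per kb and Oseg2 second at 3.20 ± 0.536, with no overlap between them. Oseg1, nmdyn-D7, nompB and rempA followed at 1.39, 1.36, 1.21 and 1.03 CPM per kb, each overlapping the next, and Oseg6, Oseg5 and Oseg4 were at 0.582, 0.380 and 0.227. Tektin-C and Oseg2 stood lower in the order of the REPTOR[ACT] thoraces, and nmdyn-D7 and rempA stood higher, while Oseg1 and nompB, and Oseg6, Oseg5 and Oseg4, followed each other in the same order in both genotypes.

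**Figure D3:**
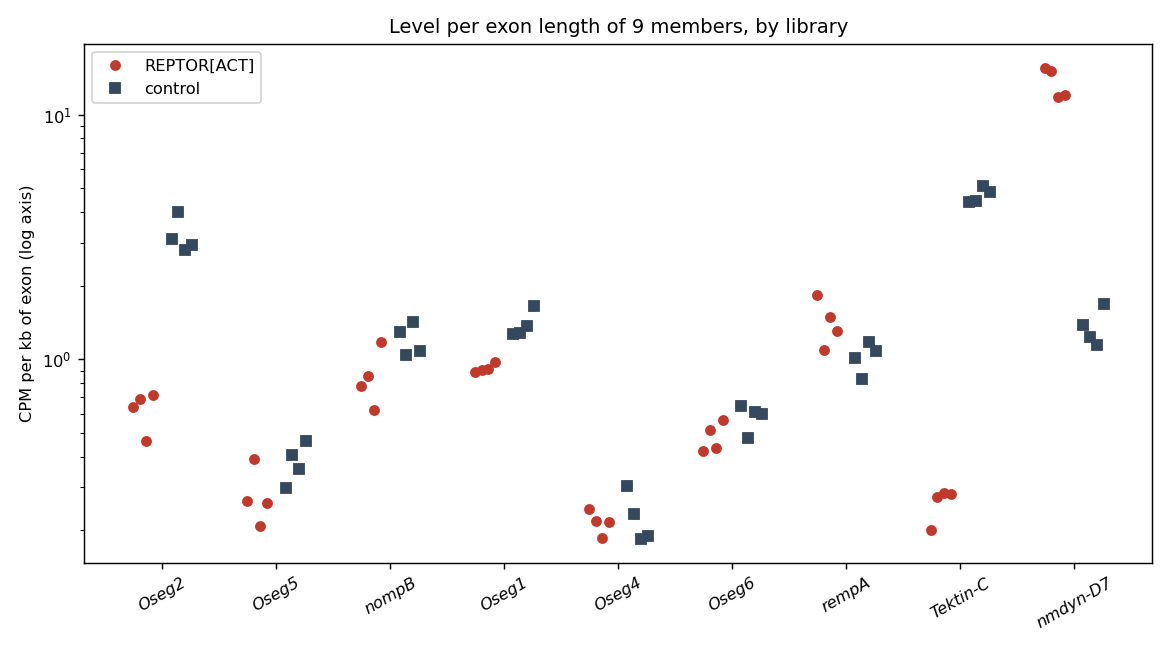
The vertical log axis gives CPM per kb of exon for 9 genes, with 1 point per library (red circles REPTOR[ACT], dark squares control). nmdyn-D7 is near 13.6 CPM per kb in REPTOR[ACT] and 1.36 in control libraries, while Tektin-C is near 0.260 in REPTOR[ACT] and 4.70 in control libraries.

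The genes with the most similar profiles were sought for the 3 genes with a large difference, by the Euclidean distance of log2 CPM (prior count 2) centred on each gene's mean over the 8 libraries. Nearest to Oseg2 were plh (distance 0.581), the cytochrome P450 gene Cyp6a2 (0.592) and BG642312 (0.622). BG642312 had only 3, 3, 2 and 4 reads in the REPTOR[ACT] libraries, against 27, 43, 19 and 16 in the control libraries. The distance of BG642312 therefore depends on the prior count. plh was at 15.4 to 30.6 CPM in REPTOR[ACT] and 133 to 150 CPM in control libraries, and Cyp6a2, like Oseg2, was highest in control replicate 2 at 71.0 CPM. Nearest to Tektin-C were Cyp6a17 (0.619), another P450 gene, Cln3 (0.952), whose product is a lysosomal membrane protein, and Adh (1.13), the alcohol dehydrogenase gene. Cyp6a17 was at 1.60 to 2.54 CPM in REPTOR[ACT] and 28.0 to 32.4 CPM in control libraries.

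Nearest to nmdyn-D7 were the flight muscle actin gene Act88F (0.534), lncRNA:CR43157 (0.563) and CG33307 (0.617). Act88F was at 2776 to 3758 CPM in REPTOR[ACT] and 337 to 418 CPM in control libraries (log2 fold change 3.14, SE 0.106). lncRNA:CR43157 had 59 reads over the REPTOR[ACT] libraries and 0 in the control libraries, so its distance depends on the prior count. The distance takes in the difference between genotypes together with the spread within them.

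The remaining genes of the cilium were listed by name. Tektin-C, Oseg2 and nmdyn-D7 were picked with their large changes known, so the size of those changes is not compared with these lists. Of 45 genes matched in 4 lists (other IFT and BBSome genes, IFT motors, the transition zone at the ciliary base, and axonemal dyneins with their assembly factors) 32 passed the count filter, of which 0 rose, 8 fell and 24 did neither in edgeR's quasi-likelihood test. IFT22, IFT25, IFT27, IFT74, IFT81, BBS7, Tmem216, Rpgrip1L and Heatr2 were listed too but matched no gene symbol, so they are not covered. The 8 that fell are 25% of those tested, near the 19.4% of all genes, whereas 24.8% of all genes rose. At an unadjusted p under 0.05, 0 were higher and 11 lower, and DESeq2 and limma-voom both gave 0 that rose and 8 that fell. Their median log2 fold change was −0.27, against −0.01 for all genes tested, and 28 of the 32 values were negative (87.5%, against 51.0% of all genes). These counts and medians describe the lists and are no test of them.

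Among the other IFT-B genes the largest decrease was in Ttc26, which had 1.10, 1.35, 1.14 and 1.07 CPM in REPTOR[ACT] libraries, against 3.08, 2.94, 2.40 and 2.85 CPM in control libraries (log2 fold change −1.28, SE 0.142, adjusted p = 2.3e-05 in edgeR's quasi-likelihood test). The genotypes did not overlap for this tetratricopeptide repeat gene. IFT52 (−0.79, SE 0.225, adjusted p = 0.014) and Ttc30 (−0.46, SE 0.136, adjusted p = 0.017) also fell. IFT20 (−0.67, SE 0.278), Cluap1 (−0.20), IFT54 (−0.16), IFT57 (−0.30) and IFT46 (0.26) did not pass. Of these 8 IFT-B genes 3 fell (37.5%, against 19.4% of all genes), 0 rose and 7 had negative values (87.5%, against 51.0% of all genes).

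IFT43, the other IFT-A gene measured, fell (log2 fold change −0.55, SE 0.179, adjusted p = 0.026 in edgeR's quasi-likelihood test), though not with control replicate 3 or 4 or REPTOR[ACT] replicate 2 or 3 left out (adjusted p 0.071, 0.065, 0.057 and 0.053). ktub, the tubby-like gene that carries membrane proteins into cilia, fell (−0.65, SE 0.153, adjusted p = 0.0051). BBS4, BBS5, BBS8 and BBS9, of the BBSome that moves membrane proteins along cilia, and Arl6, listed with them, had values of −0.36 to −0.03. None passed the threshold (44.2% of all genes did), and 0 were at an unadjusted p under 0.05 in edgeR's quasi-likelihood test. None passed in DESeq2 or limma-voom either.

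Of the motors, the kinesin-II subunit genes Klp64D and Kap3 fell (log2 fold changes −0.33, SE 0.0627, and −0.32, SE 0.0549). Klp64D was at 25.1 to 27.6 CPM in REPTOR[ACT] and 31.3 to 35.4 CPM in control libraries, without overlap. The third subunit gene, Klp68D, did not pass (0.02, SE 0.0631), and neither did the dynein light intermediate chain gene CG3769 (0.03, SE 0.314) or the dynein heavy chain gene btv (−0.22, SE 0.111). Kinesin-II also moves cargo in neuronal axons.

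In the transition zone list 4 of 9 genes were tested and none passed, where 44.2% of all genes did (Cc2d2a −0.48, dila −0.34, Cep290 −0.26 and B9d1 −0.01). None passed in DESeq2 or limma-voom, and 1 was lower at an unadjusted p under 0.05 in edgeR's quasi-likelihood test. B9d2 and tctn had no read in any library. These 2 genes have the same exons in the annotation, so their counts of 0 may come from how reads that match more than 1 gene were counted, which was not tested. Of the axonemal dynein list 8 of 15 were tested and only CG3339 fell (−0.34, SE 0.0819, adjusted p = 0.0055 in edgeR's quasi-likelihood test). This is 12.5% of those tested, against 19.4% of all genes. Dhc93AB was at 13.1 to 16.0 CPM in REPTOR[ACT] and 13.8 to 17.3 CPM in control libraries (−0.10). The sperm dynein genes kl-2, kl-3 and kl-5, on the Y chromosome, had at most 3 reads in any library. The fly ciliogenesis factor Rfx was at 23.3 to 28.0 CPM in REPTOR[ACT] and 25.0 to 26.5 CPM in control libraries (−0.03, SE 0.0699), and fd3F, a forkhead factor of chordotonal neurons, had too few reads to fit.

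**Figure D4:**
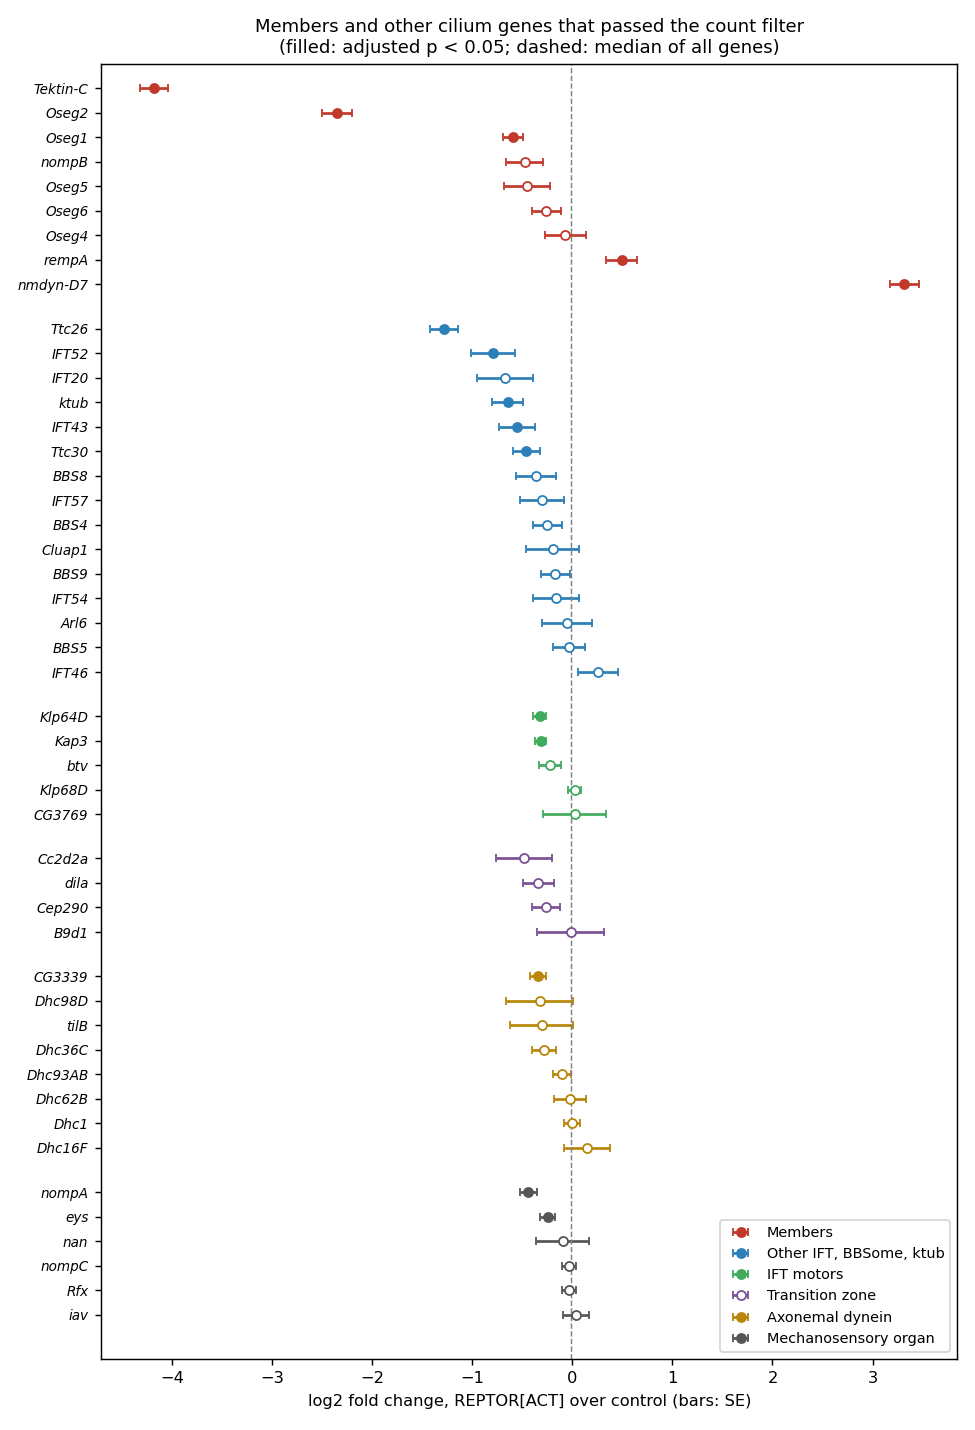
Each point is a gene's log2 fold change, REPTOR[ACT] over control, with its SE as a bar, for the 9 genes at the top (red), the 4 other cilium lists and mechanosensory organ genes, where filled points passed an adjusted p of 0.05 and the dashed line is the median of all genes. Tektin-C (−4.18), Oseg2 (−2.35) and nmdyn-D7 (3.32) lie far from the line, and the other cilium genes span −1.28 to 0.26.

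Markers of the cell types that carry axonemes were read beside these values. Of 9 markers of chordotonal and other mechanosensory organs 8 were tested. Of these 0 rose (24.8% of all genes did) and 2 fell (25%, near the 19.4% of all genes). The 2 were nompA (log2 fold change −0.44, SE 0.0833) and eys (−0.24, SE 0.0741), both of the extracellular matrix around the cilium. DESeq2 and limma-voom gave the same counts. The list shares btv and tilB with the cilium lists. The channel genes nompC (−0.03), iav (0.04) and nan (−0.10) did not pass. The summed level of the list was 72.4 to 75 CPM in REPTOR[ACT] and 80.4 to 83.3 CPM in control libraries. Its largest parts were eys (means of 24.3 CPM in REPTOR[ACT] and 28.8 CPM in control libraries) and Rfx (25.1 and 25.6 CPM). The part of these organs in the decreases of the cilium genes was not tested. Neuronal markers summed to 748 to 859 CPM in REPTOR[ACT] and 810 to 931 CPM in control libraries. Of these 8 genes nSyb (−0.19) and VGlut (−0.27) fell (25%, against 19.4% of all genes), 0 rose, and elav (0.03) did not pass.

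Most testis markers were at or near 0. Of 17 such genes 9 had at most 3 reads in every library and 15 had too few to fit, and the sum over the list was 1.97 to 3.46 CPM in REPTOR[ACT] and 2.32 to 2.65 CPM in control libraries. The highest sum was that of REPTOR[ACT] replicate 4, where loopin-1 had 15 reads, against 0 to 4 in any other library. Mst77F was at 0.329 to 0.807 CPM in REPTOR[ACT] and 0.799 to 1.10 CPM in control libraries and fell (−0.87, SE 0.274), and twe was at 0.869 to 1.18 CPM in REPTOR[ACT] and 0.825 to 1.21 CPM in control libraries (0.02, SE 0.194). Of 12 muscle markers 7 rose (58.3%, against 24.8% of all genes), 1, Mf, fell (−1.75, SE 0.0692) and 4 did neither, with a median log2 fold change of 0.45. The list summed to 39197 to 42020 CPM in REPTOR[ACT] and 28840 to 31400 CPM in control libraries. Of 5 fat body markers tested 0 rose and 1 fell (20%), and of the 4 hemocyte and 4 glial markers 1 rose and 1 fell in each list (25% each). The shares of all genes were 24.8% that rose and 19.4% that fell. The part of these cell types in the levels of the cilium genes was not tested.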

How the data were processed

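Groups were taken from the sample labels. Per the study's methods the authors sequenced single reads in 4 pools per library, aligned them with STAR to FlyBase r6.30 and tested genes with DESeq2. The labels name the mouse build mm10 instead, and a library kit and a sequencer other than those of the study's methods. Which of these apply to this series is not known. The counting tool and strand setting were not given in the sources used. The values deposited by the authors are expected counts per gene, not scaled for depth and all multiples of 0.25. They were taken to be means over the 4 pools, an inference from the values on which all read counts, the 3-read limits and the counting errors depend, and were multiplied by 4 and used as reads. Positions and exon lengths came from Ensembl's BDGP6.54 annotation, in which 17506 of 17563 identifiers were found.

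Genes were filtered with filterByExpr (minimum count 10, total 15) and fitted over all 8 libraries with edgeR 4.0.16 (TMM, robust quasi-likelihood test, Benjamini-Hochberg adjustment) in R 4.3.3, with no covariate. The procedure was tested on counts simulated from its own fitted model. Far fewer genes were changed there than passed the threshold here, so this tested the code and not these results. limma 3.58.1 and DESeq2 1.42.0 served as alternatives, with other size factors, no filter, rounded deposited values, a replicate block and each library left out. Tables and plots used Python 3.11.15. No library was a copy, since chi-square per degree of freedom was 15.2 to 111 between libraries of a group. Deviations from the group means of same-numbered libraries correlated with r of 0.138, 0.433, 0.220 and 0.137, all over 0.1. Libraries of unlike number reached at most 0.0693 for replicates 1 and 2, but 0.221 for replicates 3 and 4. Pairing by number is therefore not shown for replicates 3 and 4. Samples with the same number were treated as pairs only in the alternative fit with a replicate block.

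The genes and lists were chosen with earlier results of these data known. Named were the 10 genes, REPTOR, tested genes of the other cilium lists, genes with overlapping exons, and, for Oseg2, Tektin-C and nmdyn-D7, adjacent genes and the 3 nearest profiles. Marker genes and the other kinases were named as list members.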

Additional observations from a re-analysis of the deposited data

Results flagged for a closer look

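The Tektin-C level of REPTOR[ACT] replicate 1, 0.329 CPM, was far from the other REPTOR[ACT] libraries, which lay at 0.451 to 0.468 CPM, in Dixon's test for a single distant value. It rests on 14 reads, and 18 groups of 4 libraries were examined, of which chance would mark about 1 in 20. The library was still far below every control library (7.24 to 8.41 CPM).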

How the results depend on the processing

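Under the 15 alternatives run (DESeq2, limma-voom, other size factors, total library size, no filter, rounded deposited values, the replicate block and 8 left-out libraries) the log2 fold changes ranged as follows: Oseg2 (−2.42 to −2.21), Tektin-C (−4.23 to −4.05), nmdyn-D7 (3.25 to 3.44) and Oseg1 (−0.64 to −0.49). These genes were picked on this contrast, so their ranges are descriptions. Ttc26 (−1.35 to −1.24) passed the threshold in all 15. rempA passed in 11 of 15 (0.35 to 0.61), so the count of the 10 genes that rose ranged from 1 to 2 with a library left out. The count that fell was 4 without REPTOR[ACT] replicate 2, where Oseg5 passed, or replicate 4, where nompB passed, and 3 otherwise. With deposited values rounded, 5 genes of the other cilium lists fell, against 8, and IFT43 (adjusted p 0.13) and Ttc30 (0.065) were among those lost in edgeR's quasi-likelihood test. IFT52 lost the threshold without control replicate 2 (0.052). Oseg4 ranged from −0.14 to 0.086 with a library left out, positive without control replicate 1, and never passed. The replicate block gave 2 genes that rose and 3 that fell, changed no call of the 10 genes, and gave 2805 increases and 2428 decreases over all genes, against 2459 and 1918. Depth limits Oseg4, Oseg5 and Tektin-A, with at most 50 reads in a library, and Tektin-C in REPTOR[ACT] libraries.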
